A study of Mus musculus with 8 samples.

Results

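Lipid droplets are the stores in which hepatocytes keep triglyceride, and the report describes 10 genes for the proteins that coat these droplets, fuse them or act on the lipid inside. They were chosen by name (Plin2, Plin3, Plin4, Plin5, Cideb, Cidec, G0s2, Pnpla2, Hsd17b13 and Mgll), and each name matched 1 of the 34745 genes in the table. The cells were primary hepatocytes of wild-type male mice injected with adeno-associated virus (AAV8) at an age of 6 weeks and used after 4 more weeks. The virus carried GFP in the control group (AAV-GFP, 4 libraries) and mouse Trib3 in the other (AAV-Trib3, 4 libraries). Every animal thus carried a virus. The strain, the viral dose and the promoter that drives each transgene were not given in the sources used here. Messenger RNA was selected on oligo(dT) beads, and the comparison asked how hepatocyte transcripts differ when Trib3, a pseudokinase known to bind AKT, is raised.

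A droplet has a core of triglyceride and sterol ester under a single layer of phospholipid, and the perilipins cover that surface and limit the access of lipases. Breakdown runs in steps: the lipase of Pnpla2 removes a fatty acid from triglyceride, other lipases continue, and the lipase of Mgll releases the last fatty acid from monoacylglycerol. In liver several of these genes are known to follow the supply of fatty acids, in part through the nuclear receptors of the PPAR family.

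Total counts ran from 11350442 to 15361128 per library. Trib3 had 299 to 881 counts in AAV-Trib3 and 11 to 55 in AAV-GFP, and the groups did not overlap. It had the smallest p of all genes and a log2 difference of 4.17 ± 0.47 (SE), and its edgeR adjusted p of 0.0675 also missed the threshold of 0.05 used here. The 11 hepatocyte markers found in the table summed to between 83139 and 158719 CPM (counts scaled to a fixed library total, with TMM factors). Macrophage markers summed to 10.7 to 118 CPM, endothelial markers to 21.9 to 105 CPM and stellate cell markers to 5.85 to 42.6 CPM. AAV-GFP replicate 2 stood apart, with 32.0% of its counts from mitochondrially encoded genes against 14.9% to 18.5% elsewhere and a TMM factor of 0.699. The labels do not say that each library came from its own mouse, so p-values measure the spread between these libraries, which may be technical.

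No droplet gene passed the test between AAV-Trib3 and AAV-GFP. In edgeR's quasi-likelihood test with Benjamini-Hochberg adjustment over all 11036 genes tested, all 10 passed the filter on low counts and 0 passed an adjusted p of 0.05, where 0% of all genes did. DESeq2 called 0 of the 10, against 0.119% of its tested genes, and limma-voom called 0, against 0%. At an unadjusted p under 0.05 edgeR listed 1 of the 10, Cidec, against 3.14% of all genes. The groups overlapped in every one of the 10, whereas they did not overlap in 2.29% of all genes. Values were higher in AAV-Trib3 for 4 genes and lower for 6, with a median log2 difference of −0.07 beside −0.01 over all genes tested. The data did show a wide range within AAV-GFP: its replicate 3 had the highest level of 6 of the 10 genes and its replicate 2 the lowest level of 7. Over all genes tested, 16.6% were highest in AAV-GFP replicate 3 and 23.7% lowest in AAV-GFP replicate 2, which was also the library where the most genes were highest (21.7%).

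Plin2, Plin4, Plin5, Cidec and Pnpla2 shared that pattern, each highest in AAV-GFP replicate 3 and lowest in AAV-GFP replicate 2, as were 6.29% of all genes tested. These 5 were picked out after their values had been seen. Within AAV-Trib3 they did not go together: the highest library was replicate 2 for Plin2, 3 for Plin4 and Plin5, 4 for Cidec and 1 for Pnpla2. G0s2, not among the 5, had the same order of AAV-GFP libraries but was highest in AAV-Trib3 replicate 2. The sequences of the 5 around the RefSeq transcription start are shown because of their shared highest and lowest libraries. Each runs from 250 bases before the start to 20 after it, on GRCm38.p6 (the mm10 build), 5′ to 3′ on the strand of the gene. Plin5 and Cidec each have another start with its own window, which is not printed. For these genes the printed window is that of the start farther upstream. Capitals mark matches on either strand to 6 short motifs. These are AGGTCA, which nuclear receptors bind, and the E-box spelled CACGTG. Forkhead factors are known to bind the motif spelled GTAAACA. The remaining motifs are the box named for its letters CCAAT, the GC box spelled GGGCGG and the promoter element spelled TATAAA. No printed match overlaps another.
Plin2, minus strand, chr4:86670040-86670309: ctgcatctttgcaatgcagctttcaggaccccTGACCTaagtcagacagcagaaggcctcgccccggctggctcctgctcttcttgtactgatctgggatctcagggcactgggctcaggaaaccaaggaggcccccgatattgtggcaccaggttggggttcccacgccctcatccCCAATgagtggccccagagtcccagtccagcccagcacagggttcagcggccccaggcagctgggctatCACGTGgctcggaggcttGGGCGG
Plin4, minus strand, chr17:56109763-56110032: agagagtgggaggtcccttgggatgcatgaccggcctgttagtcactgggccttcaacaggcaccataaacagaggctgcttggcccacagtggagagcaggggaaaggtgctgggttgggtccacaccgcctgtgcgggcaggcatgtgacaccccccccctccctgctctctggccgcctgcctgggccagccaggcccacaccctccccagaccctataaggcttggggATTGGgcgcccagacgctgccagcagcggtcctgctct
Plin5, minus strand, chr17:56117529-56117798: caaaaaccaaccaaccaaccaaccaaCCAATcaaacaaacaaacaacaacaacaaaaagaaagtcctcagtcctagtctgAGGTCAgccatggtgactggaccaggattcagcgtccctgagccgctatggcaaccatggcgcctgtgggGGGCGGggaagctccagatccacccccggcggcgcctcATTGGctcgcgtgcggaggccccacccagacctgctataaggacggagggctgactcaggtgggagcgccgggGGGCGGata
Cidec, minus strand, chr6:113435741-113436010: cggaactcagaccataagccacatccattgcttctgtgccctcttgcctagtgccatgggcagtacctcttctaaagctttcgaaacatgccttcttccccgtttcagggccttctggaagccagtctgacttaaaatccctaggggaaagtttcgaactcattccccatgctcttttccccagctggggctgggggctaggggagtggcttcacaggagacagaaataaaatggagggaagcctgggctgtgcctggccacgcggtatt
Pnpla2, plus strand, chr7:141454938-141455207: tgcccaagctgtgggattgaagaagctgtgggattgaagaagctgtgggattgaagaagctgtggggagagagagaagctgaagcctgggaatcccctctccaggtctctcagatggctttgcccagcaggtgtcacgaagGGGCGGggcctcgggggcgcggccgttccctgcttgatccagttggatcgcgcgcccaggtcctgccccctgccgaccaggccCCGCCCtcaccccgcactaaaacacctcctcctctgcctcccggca

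The 10 genes have 13 windows. AGGTCA was found in 4 of the 13, from 3 genes (Plin2, Plin5 and Hsd17b13), and in 15% of the 32851 mouse promoter windows of this length. The direct repeat of that motif with 1 base between the copies, the usual form of a PPAR element, was found in none of the 13 windows and in 0.0335% of all windows. Only this exact spelling was searched. At so low a share 13 windows would rarely hold it, so its absence tells nothing about these genes. CCAAT was found in 4 of the 13 windows, from the 4 perilipins, and in 35.4% of all windows. A CACGTG spanned the start of Plin2, from 4 bases before it to 2 bases after it, and 6.57% of all windows held this motif. Mgll, whose sequence is not shown, also held CACGTG, which was thus in 2 of the 13 windows. Mgll alone held GTAAACA, in 1 of the 13 windows beside 3.38% of all windows. GGGCGG was found in 9 of the 13 windows, from 7 of the 10 genes, and in 34.1% of all windows. TATAAA was found in 1 of the 13 windows, that of Cideb, and in 12.9% of all windows. The Cidec window printed above held no match to any of these motifs. A match describes the letters only.

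**Figure D1:**
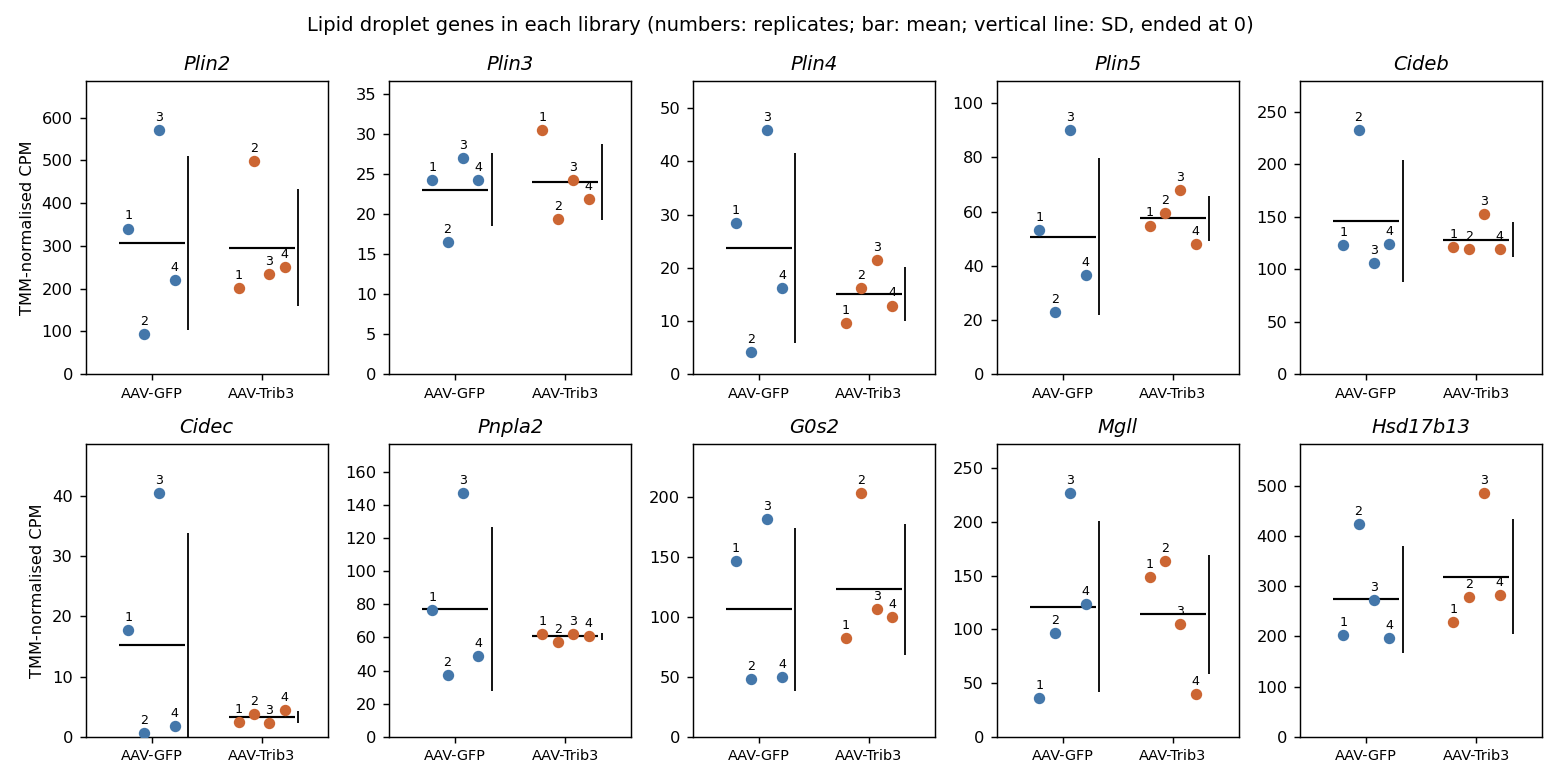
TMM-normalised CPM of each of the 10 genes (vertical axes, linear, each from 0) in the 4 AAV-GFP and 4 AAV-Trib3 libraries. Points are libraries with their replicate number, horizontal bars are means and vertical lines are SDs. The 4 AAV-Trib3 libraries of Pnpla2 lie between 57.2 and 62.2 CPM, inside the 37.1 to 147 CPM of AAV-GFP.

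Plin2 encodes perilipin 2, the main droplet coat of hepatocytes. It had 341, 94.8, 572 and 219 CPM in AAV-GFP replicates 1 to 4 and 201, 499, 234 and 250 CPM in AAV-Trib3 replicates 1 to 4. Both groups had high and low libraries, AAV-Trib3 replicate 2 coming next after AAV-GFP replicate 3. The AAV-Trib3 mean was 296 ± 137 CPM and the AAV-GFP mean 307 ± 203 CPM (SD, n = 4 each). The log2 difference of −0.05 ± 0.49 (SE) had a 95% interval from −1.15 to 1.05, which takes in a difference of 1 on the log2 scale either way. The gene occupies bases 86648386 to 86670060 of chromosome 4, minus strand.

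Plin5 encodes perilipin 5, a coat known to tether droplets to mitochondria and to bind the Pnpla2 lipase. Its level was 53.2, 22.9, 90.2 and 36.7 CPM in AAV-GFP replicates 1 to 4 against 54.9, 59.4, 68.0 and 48.2 CPM in AAV-Trib3. All 4 AAV-Trib3 libraries lay within the range of AAV-GFP. The log2 difference was 0.18 ± 0.35 (95% interval −0.61 to 0.97) and turned to −0.05 without AAV-GFP replicate 2.

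Plin4 encodes perilipin 4, a coat with a long amphipathic repeat that is best known from fat and muscle. Its start lies 1797 bases beyond the end of Plin5 on the minus strand of chromosome 17, and Plin3 lies on the same strand upstream of Plin5, the 3 genes spanning 189921 bases. AAV-GFP replicates 1 to 4 had 28.5, 4.12, 45.9 and 16.2 CPM of Plin4, an 11.2-fold range, and AAV-Trib3 had 9.62, 16.3, 21.4 and 12.9 CPM. AAV-GFP held both the highest and the lowest library. The log2 difference of −0.66 ± 0.56 had a 95% interval from −1.93 to 0.60 and was −0.12 without AAV-GFP replicate 3, −0.999 without AAV-GFP replicate 2 and −0.32 with limma-voom.

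Plin3, a coat that moves between the cytosol and new droplets, had the smallest spread of the family over all 8 libraries (SD of log2 CPM 0.28), although within AAV-Trib3 Plin5 varied less (0.21 against 0.28). It ranged from 16.5 to 27.0 CPM in AAV-GFP and from 19.4 to 30.5 CPM in AAV-Trib3. The log2 difference of 0.06 ± 0.19 had the narrowest interval of the 10 genes, from −0.37 to 0.48.

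In the deposited FPKM, which divide counts by a gene length and the library total, Plin2 led the family in all 8 libraries. The length behind these FPKM is not that of a transcript: for 8 of the 10 genes it was, within 1 base, the sum of all distinct exons annotated in GENCODE, with overlapping exons of different isoforms counted again. For Pnpla2 it came to 6988 bases, beyond the 5546 bases of the whole gene, and over the 10 genes it was 0.57 to 2.31 times the length of the merged exons. Comparisons between genes are therefore given for the deposited FPKM and, where it changes them, for the same counts divided by merged exons, a choice made after seeing the data. In FPKM, Plin2 made up 54.1% to 70.2% of the summed perilipin value in AAV-GFP and 54.0% to 76.2% in AAV-Trib3. Plin5 made up 17.6% to 21.8% and 15.2% to 27.1%, Plin3 8.05% to 22.8% and 7.18% to 19.9%, and Plin4 1.33% to 3.20% and 1.41% to 2.90%, in the same order of groups. By merged exons Plin2 led in all 8 libraries as well, with 61.0% to 79.6%, and Plin3 made up 2.87% to 10.1%. Plin3 is a gene whose span in the deposited table differs from that in GENCODE, so its merged length may not be that of the counted exons. The groups overlapped in the share of each of the 4 genes by either length. Plin1, the perilipin of fat cells, was at 0 in 6 libraries and at most 0.229 CPM in the others.

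**Figure D2:**
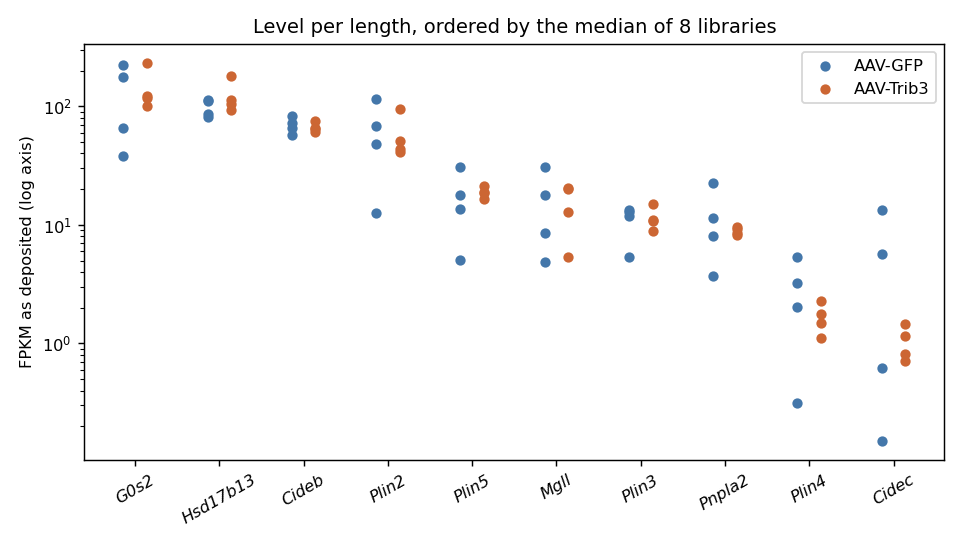
Deposited FPKM (log axis) of the 10 genes in each library, ordered by the median of all 8 libraries, with AAV-GFP in blue and AAV-Trib3 in orange. Medians fall from 120 FPKM for G0s2 to 0.989 FPKM for Cidec, and every gene's range overlaps that of its neighbour. The FPKM use summed exon lengths, and by merged exons G0s2 and Hsd17b13 change places, as do Plin3 and Pnpla2.

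The order of FPKM levels over all 10 genes, by the median of 8 libraries, was G0s2 (120), Hsd17b13 (107), Cideb (66.0), Plin2 (49.5), Plin5 (18.3), Mgll (15.5), Plin3 (11.4), Pnpla2 (8.95), Plin4 (1.89) and Cidec (0.989). In all 9 pairs of neighbours the ranges over the libraries overlapped. Within each library, Hsd17b13 was above Cideb, Plin2 above Plin5 and Pnpla2 above Plin4 in all 8, and the other 6 neighbouring pairs changed places in at least 1 library. By merged exons Hsd17b13 came before G0s2 and Pnpla2 before Plin3, the other genes keeping their places.

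The CIDE proteins bring droplets together and pass lipid between them. Cidec, the member known from fat cells and fatty liver, had the largest log2 difference of the 10 genes. It had 17.7, 0.703, 40.5 and 1.77 CPM in AAV-GFP replicates 1 to 4, from 211, 7, 561 and 29 counts. AAV-Trib3 had 2.50, 3.81, 2.36 and 4.46 CPM, from 41, 52, 31 and 66 counts. AAV-GFP replicates 1 and 3 were thus far above all other libraries, replicates 2 and 4 were below all of AAV-Trib3, and the AAV-Trib3 libraries lay close together between them. Before TMM scaling, the exact Clopper-Pearson 95% interval was 0.198 to 1.01 CPM in AAV-GFP replicate 2 and 39.7 to 46.9 CPM in replicate 3, which covers counting error only.

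Cidec averaged 3.28 ± 1.02 CPM in AAV-Trib3 libraries and 15.2 ± 18.6 CPM in AAV-GFP libraries (SD, n = 4). The log2 difference was −2.21 ± 0.98 (SE, 95% interval −4.40 to −0.02), with an unadjusted p of 0.0485 and an edgeR adjusted p of 0.9995. Leaving out single libraries gave −2.60 to −1.03, the latter without AAV-GFP replicate 3, and limma-voom gave −0.88 (unadjusted p = 0.469). Of the defining markers of fat cells, Adipoq and Lep reached at most 0.1004 CPM and Retn was at 0 throughout. The 9 fat cell markers summed to 14.8 to 21.8 CPM in AAV-GFP and 15.6 to 20.5 CPM in AAV-Trib3, with Lipe at 10.1 to 14.3 CPM and Adrb3 at 1.98 to 5.62 CPM. Within AAV-GFP, Cfd, the adipsin gene, was high where Cidec was, with 4.28, 0.1004, 2.74 and 0.122 CPM in replicates 1 to 4. In AAV-Trib3 it had 0.22 to 1.45 CPM. Its highest library there was replicate 3, where Cidec was the lowest of that group at 2.36 CPM. Cidea, another CIDE gene, had 0.671, 0.301, 0.722 and 0.122 CPM in AAV-GFP and was at 0 in AAV-Trib3. Other markers of the list went another way. Fabp4 had 0.671, 2.01, 1.66 and 1.77 CPM and Adrb3 2.60, 5.62, 2.31 and 2.68 CPM in AAV-GFP replicates 1 to 4. Both were highest in replicate 2, where Cidec was lowest. The part of fat cells in the Cidec levels was not tested. In bulk RNA fewer cells of a type and less RNA per cell cannot be told apart.

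Cideb, the CIDE gene of normal hepatocytes, which is known to load lipid onto secreted lipoproteins, ran the other way. Its level was highest in AAV-GFP replicate 2 at 233 CPM and lowest in AAV-GFP replicate 3 at 106 CPM, the libraries where Cidec was lowest and highest. The remaining AAV-GFP libraries had 123 and 124 CPM, and AAV-Trib3 had 121, 119, 153 and 120 CPM. In FPKM, which do not use the TMM factor, AAV-GFP replicate 2 had 83.0 and replicate 3 had 57.4. The log2 difference of −0.19 ± 0.24 (95% interval −0.73 to 0.36) turned to 0.13 without AAV-GFP replicate 2. The FPKM ratio of Cideb to Cidec ran from 4.34 to 552 in AAV-GFP and from 44.7 to 108 in AAV-Trib3, or from 3.25 to 413 and from 33.5 to 80.7 by merged exons. Cideb overlaps Nop9 on the opposite strand by 1456 bases, and no strand setting was given, so their reads cannot be told apart there. Nop9 had 117 to 272 counts and Cideb 1462 to 2316.

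Pnpla2 encodes adipose triglyceride lipase, the enzyme of the initial step of lipolysis. AAV-GFP replicates 1 to 4 had 76.3, 37.1, 147 and 48.8 CPM, and AAV-Trib3 had 62.2, 57.2, 61.9 and 61.0 CPM. The 4 AAV-Trib3 libraries were within 1.09-fold of each other and those of AAV-GFP within 3.98-fold. Means were 60.6 ± 2.3 and 77.4 ± 49.5 CPM (SD, n = 4), a log2 difference of −0.35 ± 0.37 (95% interval −1.17 to 0.46). Without AAV-GFP replicate 3 it turned to 0.16.

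G0s2 encodes a small protein that binds and inhibits this lipase. It had 146, 47.9, 181 and 50.0 CPM in AAV-GFP replicates 1 to 4 and 82.7, 203, 106 and 99.8 CPM in AAV-Trib3. The highest library was AAV-Trib3 replicate 2, which was also the highest of its group for Plin2. The log2 difference of 0.21 ± 0.47 (95% interval −0.84 to 1.26) turned to −0.14 without that library. G0s2 lies whole within Lamb3 on the opposite strand, a gene with 28 to 65 counts against 477 to 2776 for G0s2.

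The inhibitor exceeded the lipase in FPKM and by merged exons in every library. The FPKM ratio of G0s2 to Pnpla2 was 15.4, 10.4, 9.87 and 8.22 in AAV-GFP replicates 1 to 4. In AAV-Trib3 it was 10.7, 28.6, 13.8 and 13.1. These ratios rest on the summed exon length of Pnpla2, and by merged exons they were 3.55 to 6.65 in AAV-GFP and 4.61 to 12.3 in AAV-Trib3. The groups overlapped, and AAV-Trib3 replicate 2 was the highest of all 8.

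Mgll encodes monoacylglycerol lipase, which also breaks down the endocannabinoid 2-arachidonoylglycerol. It had 36.4, 96.8, 227 and 124 CPM in AAV-GFP replicates 1 to 4 and 148, 163, 105 and 39.7 CPM in AAV-Trib3. Each group held 1 library near 40 CPM, AAV-GFP replicate 1 and AAV-Trib3 replicate 4, and 3 libraries at 96.8 CPM or more. In AAV-GFP replicate 1, Mgll was at its lowest while Cidec and Plin4 were second only to replicate 3. The log2 difference was −0.09 ± 0.54, with a 95% interval from −1.30 to 1.13. The gene spans 103949 bases on the plus strand of chromosome 6 and overlaps an antisense gene, Gm26588, which had 26 to 74 counts.

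Hsd17b13 encodes a droplet-bound retinol dehydrogenase found mainly in hepatocytes. It ranged from 197 to 424 CPM in AAV-GFP and from 229 to 487 CPM in AAV-Trib3. The highest libraries in CPM were AAV-Trib3 replicate 3 and AAV-GFP replicate 2, the latter being the library where 7 of the other genes were lowest. In FPKM, which do not use the TMM factor, AAV-GFP replicate 2 did not stand out. It had 113 FPKM, beside 114 in AAV-Trib3 replicate 4 and 110 in AAV-GFP replicate 3. The log2 difference of 0.22 ± 0.31 (95% interval −0.46 to 0.90) turned to −0.06 without AAV-Trib3 replicate 3.

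**Figure D3:**
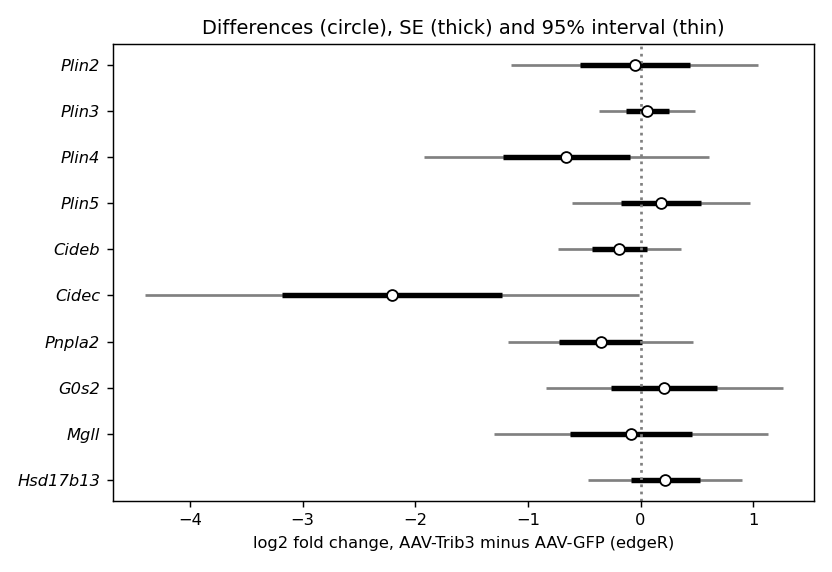
Log2 fold change of each gene, AAV-Trib3 minus AAV-GFP, from edgeR (circles), with 1 SE to each side (thick lines) and the 95% interval (thin lines), unadjusted for the number of genes. Cidec at −2.21 is the farthest from 0, and Plin3 has the narrowest interval, −0.37 to 0.48.

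The deviations of the genes from their own means set the libraries apart more than the groups. In AAV-GFP replicate 3, 8 of the 10 genes were above their own median over the 8 libraries, with a median deviation of 0.97 on the log2 scale. AAV-GFP replicate 2 had 2 of 10 above, with a median deviation of −0.93. In the other 6 libraries the median deviation lay between −0.33 and 0.16, and over all genes tested it lay between −0.02 and 0.02 in every library. In AAV-GFP replicate 3 macrophage markers summed to 10.7 CPM and stellate cell markers to 5.85 CPM, and in replicate 2 they summed to 94.6 and 42.6 CPM. AAV-GFP replicate 4 had 84.9 and 41.3 CPM of these lists and a median deviation of −0.33, and AAV-GFP replicate 1 had 14.8 and 12.8 CPM and a median deviation of 0.16. In AAV-Trib3 replicate 1, macrophage markers reached 118 CPM with a median deviation of −0.21. The part of these markers and of the mitochondrial share in the levels was not tested.

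**Figure D4:**
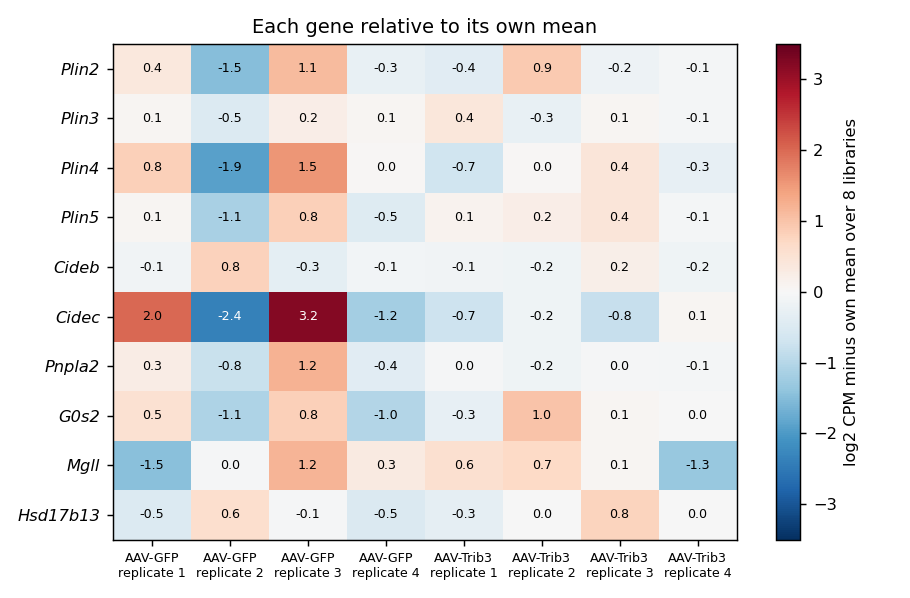
Log2 CPM of each gene minus its own mean over the 8 libraries (colour and number; rows are genes, columns are libraries). AAV-GFP replicate 3 is above the own median for 8 of 10 genes and AAV-GFP replicate 2 is not for 8 of 10, Cideb and Hsd17b13 being the exceptions.

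Spread within a group was larger in AAV-GFP for each of the 10 genes, as it was for 63.1% of all genes tested. The SD of log2 CPM had a median of 0.94 over the 10 genes in AAV-GFP and 0.45 in AAV-Trib3, beside 0.31 and 0.25 over all genes. Cidec had an SD of 2.63 in AAV-GFP, above 99.9% of all genes, and 0.43 in AAV-Trib3, above 77.7%. Pnpla2 had 0.87 in AAV-GFP, above 92.4% of genes, and 0.056 in AAV-Trib3, above only 2.47% of genes. The SD in AAV-GFP exceeded that in AAV-Trib3 only 1.13-fold for Plin3, 1.10-fold for Hsd17b13 and 1.18-fold for Mgll. Without AAV-GFP replicate 2 the spread was larger in AAV-GFP for 7 of the 10 genes and 48.4% of all genes, and without AAV-GFP replicate 3 for 10 of 10 and 57.6%. The difference in spread between the groups was not tested.

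**Figure D5:**
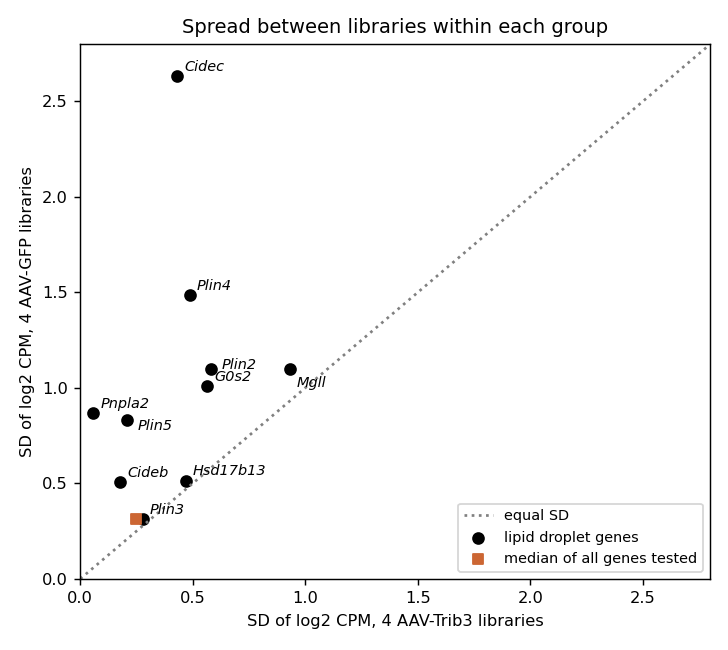
SD of log2 CPM over 4 AAV-GFP libraries (vertical axis) against that over 4 AAV-Trib3 libraries (horizontal axis) for the 10 genes (circles) and the median of all genes tested (square, 0.31 and 0.25). The dotted line marks equal SDs, and all 10 circles lie above it.

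The 3 genes with the largest SD over all 8 libraries were Cidec, Plin4 and Mgll, and the most similar genes were sought among 7157 well expressed ones by the root mean square difference of centred log2 CPM. Nearest to Cidec were Enc1 (0.86), E2f8 (0.89) and Plin4 (0.98). Nearest to Plin4 were Enc1 (0.38), the fatty acid elongase Elovl3 (0.47) and Plin2 (0.49). Enc1, which encodes an actin-binding protein, had between 1.21 and 19.6 CPM in AAV-GFP and 5.81 to 8.43 CPM in AAV-Trib3, the same order of AAV-GFP libraries as Plin4. Nearest to Mgll were the GTPase Rab11b (0.44), Ccnc, which encodes cyclin C (0.50), and Gm42878 (0.51). Rab11b had 6.54 CPM in AAV-GFP replicate 1 and 6.35 CPM in AAV-Trib3 replicate 4, the libraries low in Mgll, but also 6.93 CPM in AAV-GFP replicate 2, where Mgll had 96.8 CPM.

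Other proteins of the droplet were examined from a list of 22 genes, of which 18 were tested. Log2 differences were above 0 for 5 and below 0 for 13, with a median of −0.17, and 0 passed the edgeR threshold. Over all 11036 genes tested, 5291 were above and 5745 below 0. Bscl2, which encodes seipin, the protein that shapes nascent droplets, averaged 25.7 ± 1.7 CPM in AAV-Trib3 libraries and 33.7 ± 5.6 CPM in AAV-GFP libraries (SD, n = 4). Its groups did not overlap, and its log2 difference was −0.39 ± 0.14 (unadjusted p = 0.0216, edgeR adjusted p = 0.9995). Fitm1, which binds triglyceride for droplet formation, had a log2 difference of −0.79 ± 0.31. Pcyt1a, the rate-limiting enzyme of phosphatidylcholine synthesis, which binds growing droplets, had 0.71 ± 0.36, with 87.2 CPM in AAV-Trib3 replicate 2 and 17.4 to 36.9 CPM in the other libraries. Faf2, which recruits a segregase to droplets, had −0.21 ± 0.12 and groups that did not overlap.

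Of 17 lipases and cofactors, a list that includes Pnpla2, G0s2 and Mgll, 16 were tested, 5 above and 11 below 0 (median −0.06, 0 past the edgeR threshold). The smallest unadjusted p among the others belonged to lipoprotein lipase, Lpl, with a log2 difference of −0.93 ± 0.48. It had 38.6 CPM in AAV-GFP replicate 4 and 6.74 to 12.3 CPM in the other 7 libraries. The carboxylesterase Ces2a, one of a cluster of similar genes, had −0.36 ± 0.21, the monoacylglycerol hydrolase Abhd6 −0.20 ± 0.18 and the phospholipase Ddhd2 0.35 ± 0.36.

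Triglyceride synthesis genes, which fill the droplets, were tested for 10 of 13, with 1 above and 9 below 0 (median −0.17, 0 past the edgeR threshold). Over all 11036 genes tested, 5745 were below 0. Agpat2 and Agpat1, both acyltransferases, had log2 differences of −0.71 ± 0.39 and −0.49 ± 0.41. The phosphatidate phosphatase Lpin3 had −0.44 ± 0.40. Dgat2, an enzyme of the last step of triglyceride synthesis, averaged 390 ± 60 CPM in AAV-Trib3 libraries and 446 ± 121 CPM in AAV-GFP libraries, a log2 difference of −0.19 ± 0.22. Agpat2 (198 CPM), Agpat1 (18.5 CPM) and Dgat2 (596 CPM), but not Lpin3, were highest in AAV-GFP replicate 2. That library has the lowest TMM factor.

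Targets of PPAR alpha, the receptor of fatty acid breakdown, were tested for 18 of 18, with 8 above and 10 below 0 (median −0.03, 0 past the edgeR threshold). Vnn1, the pantetheinase vanin 1, averaged 28.9 ± 2.9 CPM in AAV-Trib3 libraries and 59.3 ± 21.98 CPM in AAV-GFP libraries, and the groups did not overlap. Its log2 difference was −1.04 ± 0.25, with an unadjusted p of 0.00191 and an edgeR adjusted p of 0.9995. Cyp4a14, a fatty acid hydroxylase, had 339, 1619, 2017 and 226 CPM in AAV-GFP replicates 1 to 4 and 69.1 to 292 CPM in AAV-Trib3. The groups overlapped, and its log2 difference was −2.40 ± 0.73 (edgeR unadjusted p = 0.00864, adjusted p = 0.9995). Its high libraries in AAV-GFP were replicates 2 and 3, so it was high both where Cidec was lowest and where Cidec was highest. Cyp4a10 had a log2 difference of −1.42 ± 0.71, and both belong to a cluster of similar genes, so reads may have been divided between copies. Fgf21, a hormone that liver releases in fasting, had −1.09 ± 0.73. Its level was low, 0.201 to 4.98 CPM in AAV-GFP and 0.548 to 1.76 CPM in AAV-Trib3, and the groups overlapped.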

How the data were processed

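RNA-seq counts and FPKM were deposited by the authors for 34745 genes in 8 libraries. Per the file headers, the deposited counts are raw, and the deposited FPKM are scaled by the authors for gene length and library total. In 5860 genes with over 100 counts everywhere, the gene length implied by count and FPKM was the same in all libraries within 1%. Per the submitters' processing notes, reads were trimmed with Trimmomatic and the build was mm10; the sources used here give no aligner, counter or strand setting. Columns were matched to samples by the code in the title.

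Counts were filtered with filterByExpr and scaled by TMM, and AAV-Trib3 was tested against AAV-GFP in edgeR 4.0.16 (R 4.3.3, robust quasi-likelihood, no covariate, adjusted p threshold 0.05). SEs come from the fold change and F statistic. Log2 CPM used a prior count of 2. FPKM served to compare genes by length, without a test, beside counts per kilobase of merged GENCODE vM21 exons, added after the data were seen. Alternatives used DESeq2 1.42.0, limma 3.58.1 (voom), other scalings and filters, the replicate block and each library left out. Promoter windows come from RefSeq, where all 10 genes matched.

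The 10 genes and all lists were chosen with earlier results of these data known. Named besides the 10 genes were Trib3, the 4 genes of each of the 4 lipid lists with the smallest unadjusted p, and the 3 genes most like each of the 3 most variable members (genes averaging log2 CPM 3 or more). Replicate libraries of a group differed far beyond sampling noise (chi-square per degree of freedom 16.8 to 204). The largest values, 172 to 204, were those of the pairs with AAV-GFP replicate 2. All 8 libraries were kept in the main fit. Intervals of counts cover counting error only.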

Additional observations from a re-analysis of the deposited data

Results flagged for a closer look

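Of the 20 groups of 4 libraries formed by the 10 genes, 3 held a library set apart by Dixon's ratio. This ratio is the distance of that library to the nearest other, divided by the range of its group. It exceeded the 95% critical value for 4 samples. Chance alone flags about 1 group in 20 where values are normally distributed. The ratio was taken on CPM and not on log2 CPM, on which high libraries stand less apart. Plin2 in AAV-Trib3 replicate 2 had 499 CPM, against 201 to 250 CPM in the rest of its group. G0s2 was also highest in this library, at 203 CPM. Cideb in AAV-GFP replicate 2 had 233 CPM, against 106 to 124 CPM in the other AAV-GFP libraries. This library has the lowest TMM factor, 0.699, and in FPKM it had 83.0 against 57.4 to 72.6. Cideb in AAV-Trib3 replicate 3 had 153 CPM, against 119 to 121 CPM in the rest of its group. Hsd17b13 was highest in this library too, at 487 CPM.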

How the results depend on the processing

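No droplet gene passed an adjusted p of 0.05 in edgeR or in any of the 17 alternative fits, nor 0.1 in edgeR, and the smallest adjusted p of any was 0.853, for Cidec without AAV-GFP replicate 2. Genes called over the whole table numbered 0 in edgeR, 9 with DESeq2 and 1 (Trib3) at an adjusted p under 0.1, and 0 to 3 when 1 library was left out, the most without AAV-GFP replicate 3. Cidec and Plin4 were lower with AAV-Trib3 in every fit, while the other 8 genes gave all 19 changes of sign among the 170 combinations of the 10 genes and the settings. Their sizes moved: Cidec was −0.88 with limma-voom and −1.06 with the replicate block, against −2.21, and its unadjusted p of 0.0485 became 0.1005 with library size alone and 0.107 with no filter, while Plin4 was −0.32 with limma-voom and −0.37 with the block, against −0.66. With limma-voom the log2 difference was 0.16 for Plin2 and 0.017 for Mgll. Leaving out 1 library gave −2.60 to −1.03 for Cidec, −0.999 to −0.12 for Plin4, −0.42 to 0.44 for Plin2, −0.079 to 0.15 for Plin3, −0.053 to 0.61 for Plin5, −0.32 to 0.13 for Cideb, −0.58 to 0.16 for Pnpla2, −0.14 to 0.60 for G0s2, −0.39 to 0.41 for Mgll and −0.058 to 0.52 for Hsd17b13; the cause was not tested. With the replicate block, Plin2 was 0.060 and 0 genes were called. Same-numbered libraries of the groups had correlations of −0.27 to −0.03 in their deviations. With so few libraries these values cannot decide whether the numbers pair the groups, and the labels do not say that they do. With 4 libraries a group, the narrowest 95% interval of the 10 genes, that of Plin3, ran from −0.37 to 0.48 on the log2 scale.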

Other observations

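In AAV-Trib3 replicate 2, G0s2 at 203 CPM and Pcyt1a at 87.2 CPM were the highest of the 8 libraries. Plin2 at 499 CPM was next to highest there, and Pnpla2 at 57.2 CPM was the lowest of its group. These genes were picked out after their values had been seen. Of the 10 genes, 1 was highest in this library, as were 13.8% of all genes tested. In it 7 of the 10 were above their own median, beside 49.0% of all genes, with a median deviation of 0.01 on the log2 scale. In the same library Trib3 had 62.6 CPM, against 67.2 CPM in AAV-Trib3 replicate 3, where Plin2 had 234 CPM and G0s2 106 CPM.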
